A study of Mus musculus with 72 samples.

Results

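The genes described here encode the proteasome, its activators and its assembly factors. Members were the protein-coding mouse genes whose symbols begin with Psm, a letter from a to g and a number, with a mean of at least 400 thymine positions covered in exons over the whole-cell libraries. Of 51826 genes counted, 50 symbols matched and 47 passed that minimum. Psmb9 (mean 929 covered thymines) and Psmb10 (3687) were the members nearest to it, and Psme2b (334), Psmb8 (21.3) and Psmb11 (16.9) fell below it.

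Mouse embryonic stem cells of the E14TG2a line, grown in 2i and LIF, were exposed to 4-thiouridine (4sU), a uridine analog that is built into RNA during transcription and is read as cytosine at thymine positions after alkylation. Cells were separated into nucleus, cytosol and membrane, and poly(A) RNA of each fraction and of whole cells was sequenced. All groups share the line, the medium and the analog, no sample without 4sU was analysed here, and a group differs from another in fraction, labeling time and labeled dose. Labeling times were 15, 20 and 30 min in the first replicate pair (1 and 2), 20, 40, 60 and 120 min in the next (3 and 4) and 60 and 120 min in the last (5 and 6), which gives 18 libraries per fraction. The labels give 500 µM 4sU for 15 to 40 min and 100 µM for 60 and 120 min, whereas the methods of the study give the higher dose at 60 min for some replicates. The conversion rates that come with the files also differ at 60 min, with 5.83% to 8.29% in replicates 3 and 4 and 2.38% to 3.99% in replicates 5 and 6, under one labeled dose. New shares are divided by these rates, the 60 min tests hold both pairs, and values within each pair are given beside them. Doses were therefore not compared, and the 8 libraries of 120 min from replicates 3 and 4 were set aside, which leaves 16 libraries per fraction. Libraries held between 13185351 and 52975732 reads on genes, with a median of 21494524.5.

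The whole-cell libraries of replicate 6 went against their labels. The median share of new to total RNA over all genes was 38.9% in the library labelled 60 min and 18.04% in the library labelled 120 min, with 0 of 47 members higher in the latter. In whole cells of replicate 5, and for every other fraction of replicates 5 and 6, 47 of 47 members were higher at 120 min. Values that rest on those libraries are given below for replicate 5 alone as well.

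The stem cell markers Pou5f1, Nanog, Sox2, Zfp42, Esrrb, Klf4, Dppa5a and Tfcp2l1 were all present, with a summed level between 2465 and 5629 RPKM (reads per kilobase of exons relative to library size, with sizes scaled by TMM) in whole cells. The summed level was between 0.276 and 1.08 RPKM for primitive endoderm markers, 0.1096 and 0.437 for mesoderm, 0.744 and 2.27 for neural, 0.553 and 3.78 for fibroblast feeder and 0.603 and 5.84 for immune markers, where Thy1 and Cd74 carried most of the last 2 lists and Ptprc was close to 0. Malat1, Neat1, Kcnq1ot1 and Meg3, which are nuclear RNAs, were all 4 higher in the nucleus than in the cytosol. All 8 transcripts of secreted or membrane proteins examined, such as Hspa5 and Calr, were higher in the membrane than in the cytosol, and all 8 were also higher in the nucleus than in the cytosol, by 2.15 to 3.28 on the log2 scale. Of 5 transcripts of cytosolic proteins, 2 were lower in the nucleus and 2 in the membrane.

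The proteasome degrades ubiquitinated proteins. Its core particle is a barrel of alpha rings, which gate the entry, around beta rings, of which Psmb5, Psmb6 and Psmb7 carry the proteolytic sites. A regulatory particle caps the barrel, with a base whose ATPases (Psmc genes) unfold substrates and non-ATPase subunits (most Psmd genes) that receive and deubiquitinate them. In cells exposed to interferon, Psmb8, Psmb9 and Psmb10 can take the places of Psmb5, Psmb6 and Psmb7 to form the immunoproteasome. Psmg1 to Psmg4, Psmd5, Psmd9 and Psmd10 are assembly chaperones, Psme1 to Psme4 are alternative caps known as activators, and Psmf1 is an inhibitor of the core. Psmc3ip, which the symbol rule also takes, is a meiotic recombination factor and not a subunit. The 47 members were 8 alpha ring, 7 beta ring, 2 immunosubunit, 6 base ATPase, 11 non-ATPase, 7 assembly chaperone and 4 activator genes, Psmf1 and Psmc3ip.

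In whole cells, the medians of core and regulatory classes stood at similar levels, and those of chaperones, activators and immunosubunits lay below them. Median levels were 68.0 RPKM for the alpha ring, 79.3 for the beta ring, 92.8 for the base ATPases and 59.6 for the non-ATPases, against 28.5 for the activators and 13.0 for the chaperones. Psma6, an alpha subunit, was the highest member with 195 ± 50.8 RPKM (SD, n = 16), followed by the ATPases Psmc5 (149) and Psmc1 (140). Its level was above that of 98.3% of the 11900 genes with at least 1 RPKM. Among the alpha ring, Psma8, which replaces Psma7 in male germ cells, stood apart with 9.26 ± 2.13 RPKM, while the other alpha genes ranged from 52.4 (Psma1) to Psma6. The beta ring ran from Psmb1 (42.6) to Psmb6 (132) and the non-ATPases from Psmd11 (27.6) to Psmd7 (89.7). Chaperones spread more widely, from Psmg3 (2.29) to Psmg1 (47.8), and the inhibitor Psmf1 had 5.26 RPKM. The activators ran from Psme2 (19.1) to Psme3 (66.1), which was above the median of the non-ATPases. Neighbours in this order, such as Psmb5 (51.8 ± 18.1) and Psma1 (52.4), differed by less than their spread over libraries.

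**Figure D1:**
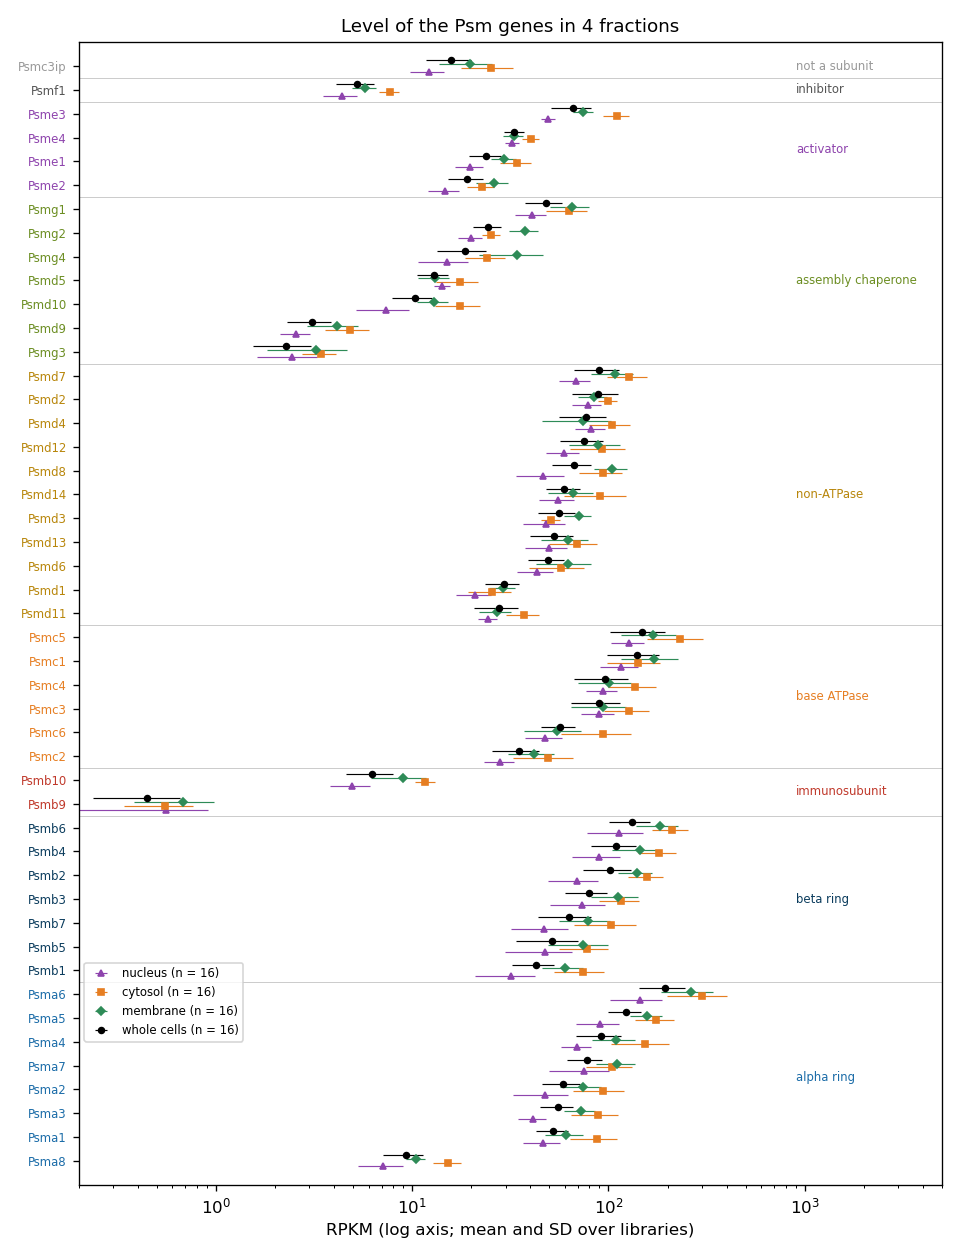
Level of the 47 Psm genes in 4 fractions, in RPKM on a log axis, by class of subunit. Points are means and bars SDs over 16 libraries; Psma6 is the highest in whole cells with 195 RPKM, and Psmb9 the lowest with 0.448 RPKM.

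Immunosubunits were far below the standard subunits whose places they can take. Psmb5, the chymotrypsin-like subunit, had between 25.9 and 83.8 RPKM over 16 whole-cell libraries with a median of 49.96, and its counterpart Psmb8 had between 0 and 0.0528 with a median of 0.0128. Psmb8 held 17 reads in all 16 libraries together, 0 reads in 5 of them and at most 3 in any, so that its level was 0.0301% of that of Psmb5. The ranges of the pair do not overlap. Psmb9 lay between 0.205 and 0.864 RPKM with a median of 0.394, against 79.8 to 196 with a median of 137 for Psmb6, the caspase-like subunit, which makes 0.340% of its mean. Psmb10, the counterpart of the trypsin-like Psmb7, was the immunosubunit with the highest level, between 4.26 and 10.0 RPKM with a median of 5.72, or 9.99% of the mean of Psmb7 (35.8 to 90.8, median 62.3). Levels per length compare genes only as far as reads were assigned alike. Reads of Psmb5 may be lost to Mir686, which overlaps 12.1% of its exonic bases on the same strand. Those of Psmg3 may be lost to Gm26938, which overlaps 9.68% of its exonic bases on the same strand. Psmb5 had 73.4 covered thymines per counted read against a median of 30.2 over 11300 genes, Psmg3 75.3 and Psmb10 17.7. The part of these differences in the levels was not tested.

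RefSeq promoter windows on GRCm38.p6 (250 bases before the annotated start to 50 after it) were at hand for 39 of the 47 members, as 42 windows. The antioxidant response element core TGACNNNGC, which Nfe2l1 and Nfe2l2 recognise, was in 6 of these windows on either strand (14.3%) and in 12.4% of 32851 windows of all genes. The ETS site CCGGAAG was in 16 windows (38.1%, against 8.86% of all), and the CCAAT box, with the letters CCAAT, in 14 (33.3%, against 37.4%). Windows of members had a median GC content of 58.0%, those of all genes 52.4%, and the GC content was not matched in these shares. The 250 bases upstream are shown for 2 catalytic core genes that hold the response element core (Psmb5 and Psmb6), for 2 regulatory genes that hold both motifs (Psmc6 and Psmd12) and for 2 that hold the ETS site and no element core (Psmc1 and Psmd2), 5′ to 3′ on the strand of the gene, with the response element core and the ETS site in capitals on whichever strand they lie.
Psmb5 (chr14:54617996-54618245, minus strand): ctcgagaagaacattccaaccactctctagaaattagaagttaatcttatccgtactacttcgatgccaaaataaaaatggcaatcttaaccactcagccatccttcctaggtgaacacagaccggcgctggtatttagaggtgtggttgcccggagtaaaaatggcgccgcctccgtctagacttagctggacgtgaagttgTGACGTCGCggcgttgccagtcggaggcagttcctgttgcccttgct
Psmb6 (chr11:70525107-70525356, plus strand): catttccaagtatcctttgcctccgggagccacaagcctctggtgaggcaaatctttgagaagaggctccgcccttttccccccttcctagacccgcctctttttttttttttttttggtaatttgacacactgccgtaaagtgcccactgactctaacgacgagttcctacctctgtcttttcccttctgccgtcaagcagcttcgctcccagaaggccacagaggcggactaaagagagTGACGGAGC
Psmc6 (chr14:45329574-45329823, plus strand): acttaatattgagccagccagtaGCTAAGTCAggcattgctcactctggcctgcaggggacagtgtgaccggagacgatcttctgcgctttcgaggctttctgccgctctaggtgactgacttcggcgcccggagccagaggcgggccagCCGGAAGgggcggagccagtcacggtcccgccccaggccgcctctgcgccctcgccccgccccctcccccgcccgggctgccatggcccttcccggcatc
Psmd12 (chr11:107479278-107479527, plus strand): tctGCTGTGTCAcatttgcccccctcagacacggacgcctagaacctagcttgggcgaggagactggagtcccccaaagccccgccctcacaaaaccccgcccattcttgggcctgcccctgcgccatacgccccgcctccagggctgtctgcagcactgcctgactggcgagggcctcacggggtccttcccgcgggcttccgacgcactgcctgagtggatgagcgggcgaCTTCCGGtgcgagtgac
Psmc1 (chr12:100109952-100110201, plus strand): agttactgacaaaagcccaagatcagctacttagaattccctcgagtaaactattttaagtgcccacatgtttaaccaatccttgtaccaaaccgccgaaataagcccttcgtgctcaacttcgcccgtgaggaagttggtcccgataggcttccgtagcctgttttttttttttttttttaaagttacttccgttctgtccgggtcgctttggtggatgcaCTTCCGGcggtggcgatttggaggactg
Psmd2 (chr16:20651402-20651651, plus strand): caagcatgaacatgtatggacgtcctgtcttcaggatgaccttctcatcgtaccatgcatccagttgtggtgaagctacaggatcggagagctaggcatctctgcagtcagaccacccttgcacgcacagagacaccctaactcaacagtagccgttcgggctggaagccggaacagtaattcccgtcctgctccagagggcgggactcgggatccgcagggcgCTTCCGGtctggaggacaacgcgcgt
The response element core begins 47 bases before the start in Psmb5, 9 in Psmb6, 227 in Psmc6 and 247 in Psmd12, and the ETS site 100 bases before it in Psmc6, 17 in Psmd12, 28 in Psmc1 and 26 in Psmd2. A match of letters is a description of the window and was not tested for binding.

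Between fractions, the question was where steady-state transcripts of the proteasome lie. Levels are relative to the other RNAs of the same fraction and not amounts per cell, and in bulk libraries a lower level in each cell and fewer cells with the transcript cannot be told apart. Members were mostly lower in the nucleus than in the cytosol. With edgeR's quasi-likelihood test over all 16093 genes (called at a Benjamini-Hochberg adjusted p under 0.05 and a log2 fold above 0.5 in size), 34 of 47 members were lower in the nucleus and 0 higher, where 21.2% of all genes tested were lower and 42.5% higher. The median log2 fold was -0.79 over the members and 0.29 over all genes tested. DESeq2's size factors moved the median of all genes by -0.11 and called 38 members lower, and the directions given below for called members hold under either scaling. In 15 of 47 members, all called, every nuclear library lay below the lowest cytosolic one, as in 8.03% of all genes tested. The transcripts of secreted proteins given above, which were higher in nucleus than in cytosol, enter the same library totals, and their part in the folds of the members was not tested.

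The shift was larger for the core than for the regulatory particle, as a description. Of 15 core genes 14 were lower in the nucleus, with a median log2 fold of -1.02, and of 17 regulatory genes 10 were lower, with a median of -0.55. Psma7 (log2 fold -0.48, SE 0.134) was the core gene that was not called. Psmd10, a chaperone of the base also known as gankyrin, had the lowest fold, with 4.14 to 11.3 RPKM in the nucleus (median 7.46) and 12.4 to 27.6 in the cytosol (median 16.4), which do not overlap (log2 fold -1.25, SE 0.128, edgeR adjusted p = 1.25e-13). Psmb10 lay between 2.50 and 7.18 in the nucleus (median 5.06) and between 9.25 and 14.0 in the cytosol (median 11.3), with a log2 fold of -1.23 (SE 0.121, edgeR adjusted p = 2.4e-14). The other immunosubunit, Psmb9, had 0.176 to 1.24 and 0.288 to 0.887 RPKM, ranges that overlap almost wholly, with a log2 fold of 0.02 (SE 0.243). Psmb1 (-1.22) and Psmb2 (-1.19), both of the beta ring, came next.

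Among the catalytic genes, Psmb7 had 21.4 to 72.1 RPKM in the nucleus (median 42.4) and 61.9 to 173 in the cytosol (median 90.2), a log2 fold of -1.13 (SE 0.161). Psmb6 had 55.1 to 183 (median 108) and 153 to 297 (median 199), a fold of -0.89 (SE 0.128), and Psmb5 21.0 to 83.7 (median 42.0) and 49.4 to 122 (median 69.4), a fold of -0.71 (SE 0.166). All 3 were called with overlapping ranges. The smallest called folds were those of the ATPases Psmc3 (-0.51) and Psmc4 (-0.55), of Psmd11 (-0.61), Psmg1 (-0.63) and Psme2 (-0.63). Blocking on the culture, which the fractions share, ended the call of Psmc3 and of no other member.

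All 4 activators had negative log2 folds of different sizes in the nucleus against the cytosol, and all but Psme4 were called lower. Psme3, a cap known mainly from the nucleus as a protein, had between 41.6 and 55.8 RPKM in nuclear libraries (median 49.3) and between 84.2 and 142 in cytosolic ones (median 110), with a log2 fold of -1.17 (SE 0.0821, edgeR adjusted p = 2.43e-20). Psme1 (-0.79) and Psme2 (-0.63), which form a joint ring and respond to interferon, were also lower. Psme4, a large nuclear cap linked to histone degradation, had a log2 fold of -0.32 (SE 0.0624) and was not called, with 26.4 to 37.0 against 32.5 to 46.7 RPKM. Psmf1 was lower, with 3.14 to 6.11 in the nucleus (median 4.09) and 6.46 to 9.41 in the cytosol (median 7.58; log2 fold -0.82, SE 0.0900).

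Among non-ATPases, 5 of 11 were lower, and Psmd3, a lid subunit, had nearly equal levels (31.1 to 68.6 RPKM in the nucleus, 43.8 to 62.6 in the cytosol; log2 fold -0.07, SE 0.0971). Replicate pairs gave 36 members lower in replicates 1 and 2, 43 in replicates 3 and 4 and 26 in replicates 5 and 6. Shares of all genes called within each pair are not given here, so these counts only show how the calls moved. The members took between 0.820% and 0.928% of the cytosolic reads in replicates 1 and 2, between 1.21% and 1.31% in replicates 3 and 4 and between 0.988% and 1.15% in replicates 5 and 6, so that their summed level moved with the replicate pair.

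**Figure D2:**
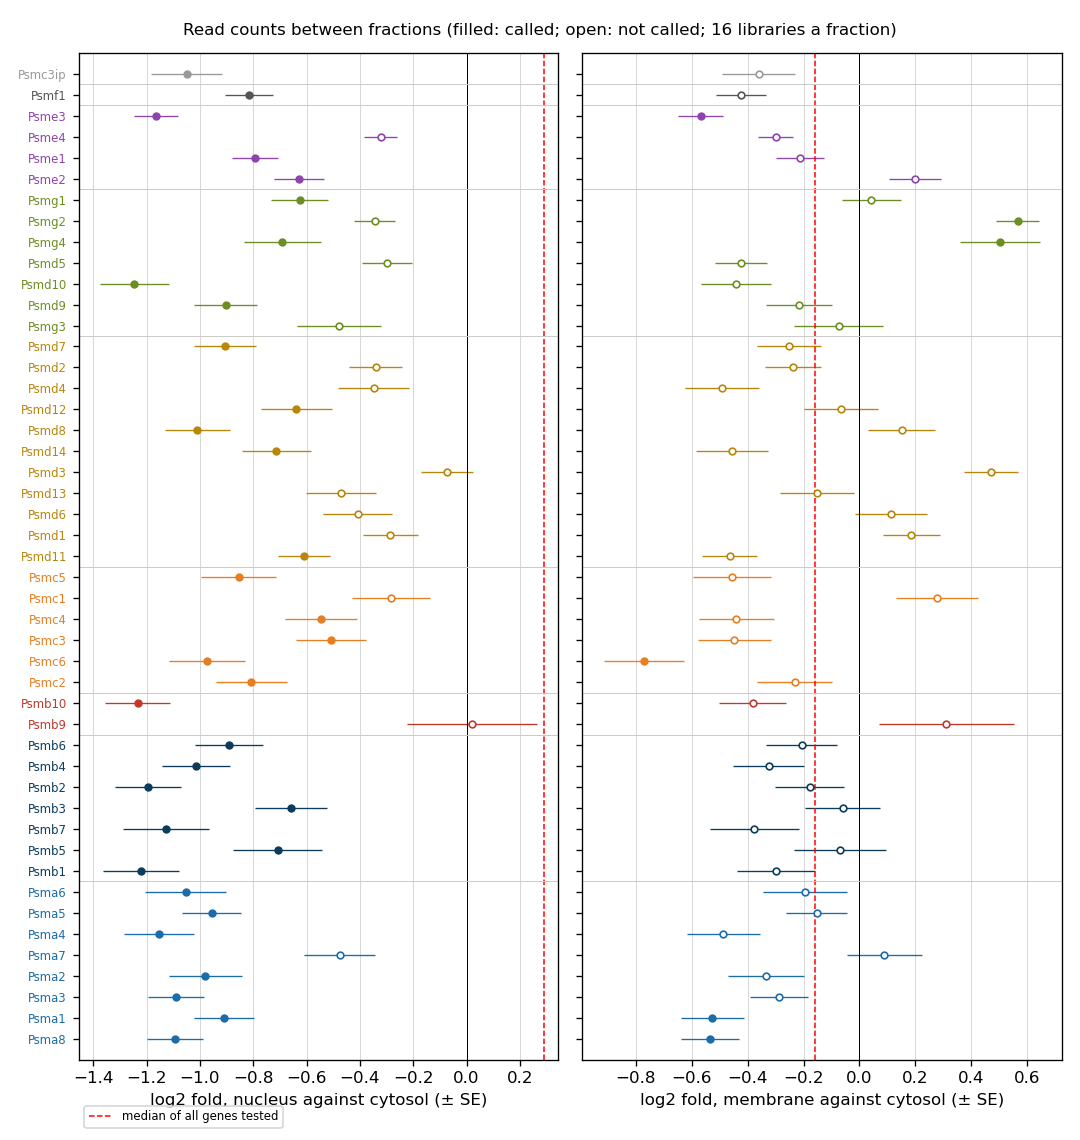
log2 fold in read counts of each member, nucleus against cytosol on the left and membrane against cytosol on the right, with SEs from edgeR; filled points passed the test and the dashed line is the median of all genes tested. On the left 34 of 47 points are filled and all but Psmb9 lie below 0, whereas on the right 6 are filled, in both directions.

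Few members passed the limits between membrane and cytosol. An unadjusted edgeR p under 0.05 was found for 29 of 47 members, beside 63.8% of all genes, and 36 members had a log2 fold below 0. With 24.1% of all genes tested higher in the membrane and 12.9% lower, 2 members were higher and 4 lower. Psmg2, a chaperone of core assembly, had 28.0 to 49.5 RPKM in the membrane (median 35.6) and 22.3 to 31.2 in the cytosol (median 24.8), which overlap (log2 fold 0.57, SE 0.0766, edgeR adjusted p = 1.74e-09). Psmg4, another core chaperone, had a log2 fold of 0.50 (SE 0.144). Psmc6 was lowest, with 38.4 to 91.5 RPKM (median 46.5) against 56.7 to 166 (median 80.8; log2 fold -0.77, SE 0.142), followed by Psme3 (-0.57), Psma8 (-0.54) and Psma1 (-0.53). No member had ranges apart. None of the catalytic subunits passed the limits (Psmb5 -0.07, Psmb6 -0.21, Psmb7 -0.38), nor did Psmb9 (0.31), Psmb10 (-0.38), Psme1 (-0.21), Psme2 (0.20), Psme4 (-0.30) or Psmf1 (-0.42). Of these, Psmb7, Psmb10, Psme1, Psme4 and Psmf1 had an edgeR adjusted p under 0.05 and missed only the limit on the fold. With the culture as a block the counts were 1 higher and 5 lower, since Psmg4 lost its call and Psmd4 gained one.

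These few calls rest on the scaling and on single replicates. With library totals alone the median of all genes fell by 0.31 relative to TMM, and 0 members were higher and 26 lower. Without replicate 2 there were 0 higher and 16 lower, without replicate 3 1 and 2, and without replicate 5 0 and 17. Replicates 1 and 2 alone gave 4 higher and 0 lower, replicates 3 and 4 gave 2 and 9, and replicates 5 and 6 gave 0 and 12. The main direction of the calls thus differed between replicate pairs. Shares of all genes called in these subsets are not given here.

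No change in the level of a member over labeling time passed the test. In whole cells, edgeR called 0 of 47 members at 40 against 20 min and at 60 against 20 min in replicates 3 and 4, and at 120 against 60 min in replicates 5 and 6, with 0% of 16858 genes called in each. By the labels the dose was the same at 20 and 40 min and at 60 and 120 min but lower at 60 than at 20 min. The methods of the study give the higher dose at 60 min for some replicates. Whether the dose differed in the 60 against 20 min comparison is thus not known, and time and dose cannot be told apart there. DESeq2 also called 0 members, and 1, 0 and 0 members had an unadjusted p under 0.05, beside 1172, 747 and 123 of all genes. The first of these was Psmc2, a base ATPase, with a mean of 46.8 RPKM at 40 min and 37.9 at 20 min (log2 fold 0.34, SE 0.158, edgeR unadjusted p = 0.0482, adjusted p = 0.676). The folds of members, none called, lay mostly on one side. At 40 against 20 min, 45 of 47 had a log2 fold above 0 with a median of 0.26, beside -0.02 over all genes, and at 60 against 20 min the median was 0.19, beside 0.00. At 120 against 60 min, 42 of 47 lay below 0 with a median of -0.19, which was -0.39 without replicate 6 and -0.01 without replicate 5. The whole-cell libraries of replicate 6 used there are those whose new shares went against their labels. The 0 calls at 120 against 60 min therefore cannot tell whether levels changed between these times. Scaling by library totals moved the median of all genes in this last comparison by 0.16, and the members' median was then -0.0032. With 2 libraries a time and members that share their libraries, these medians are a description.

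Psmb5, for example, had a mean of 51.9 RPKM at 20 min, 66.3 at 40 min and 77.3 at 60 min in replicates 3 and 4, with log2 folds of 0.39 (SE 0.307) and 0.57 (SE 0.307) against 20 min. Psmb6 had 124, 150 and 152 RPKM, with folds of 0.31 and 0.29 (SE 0.253 for both), and Psmb7 67.9, 86.2 and 81.4 (0.38, SE 0.219, and 0.26, SE 0.218). None of these folds passed the test.

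Labeled RNA was followed as the share of new to total RNA. It is the share of thymine positions read as cytosine, divided by the conversion rate that the authors estimated for each library, in percent. No background of conversions from sequencing errors was subtracted, and without unlabeled libraries its part in low shares was not tested. Only genes with at least 400 covered thymines were used. Proteasome transcripts gained labeled RNA more slowly than most genes. The median over members was below the median of all genes in 16 of 16 libraries of each fraction. The ratio of the medians was 0.522 for nuclear, 0.391 for cytosolic, 0.436 for membrane and 0.432 for whole-cell libraries, as the median over libraries. Nuclear members had a median of 2.36% at 20 min in replicates 1 and 2 (all genes 4.94%) and of 5.88% in replicates 3 and 4 (10.6%). In replicates 5 and 6 their nuclear median was 11.2% at 60 min (all genes 24.8%) and 18.95% at 120 min (44.6%). In the cytosol, members reached 7.01% at 60 min and 13.8% at 120 min in replicates 5 and 6, and all genes 20.4% and 38.5%. The whole-cell medians of replicate 5 were 8.06% at 60 min and 14.3% at 120 min, against 22.3% and 39.7% over all genes.

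The regulatory particle stood above the core. The median of the 15 core genes was below that of the 17 regulatory genes in 16 of 16 nuclear, membrane and whole-cell libraries and in 15 of 16 cytosolic ones, and the beta ring was below the ATPases in 16, 15, 16 and 14 of them, in the same order. It was below the alpha ring less regularly, in 14 nuclear, 13 membrane, 10 whole-cell and 10 cytosolic libraries of 16. In the nucleus at 120 min the core had 13.5% and the regulatory particle 20.6%. In the cytosol they had 10.7% and 15.1%. In whole cells of replicate 5, where the median of the members was 8.06% at 60 min and 14.3% at 120 min, the catalytic Psmb5 had 8.04% at 60 min and 11.3% at 120 min, Psmb6 5.58% and 11.5%, and Psmb7 3.86% and 9.34%. In replicate 6 the libraries labelled 60 and 120 min had 12.2% and 5.07% for Psmb5, 8.61% and 5.58% for Psmb6, and 8.50% and 2.93% for Psmb7, in the reverse order.

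Psmg3, Psmd5 and Psmd7 had the highest shares in whole cells at 60 min in replicates 3 and 4. Psmg3, a core chaperone, had 26.2% at 60 min and 45.7% at 120 min in whole cells of replicate 5. The libraries of replicate 6 labelled 60 and 120 min gave 44.1% and 22.1%. It was the lowest of its class in RPKM, but its counted reads may be lost to Gm26938, as given above. The part of that overlap in its level and its new shares was not tested. Psmd5, a base chaperone, had 23.7% and 37.7% in replicate 5, and Psmd7, the lid subunit that pairs with the deubiquitinase Psmd14, 17.1% and 34.5%. At 60 min in replicates 3 and 4, whole cells had 16.8% and 25.0% for Psmg3, 14.2% and 13.0% for Psmd5 and 11.7% and 13.6% for Psmd7, where Psmb2, the lowest of all members, had 2.49% and 2.45%. The same order was seen in the cytosol of replicates 5 and 6 at 120 min, with 59.8% and 54.0% for Psmg3, 36.7% and 37.9% for Psmd5, and 34.8% and 33.4% for Psmd7. Psmd1, the large scaffold of the base and part of the same particle as Psmd7, had 14.3% and 13.1% there.

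**Figure D3:**
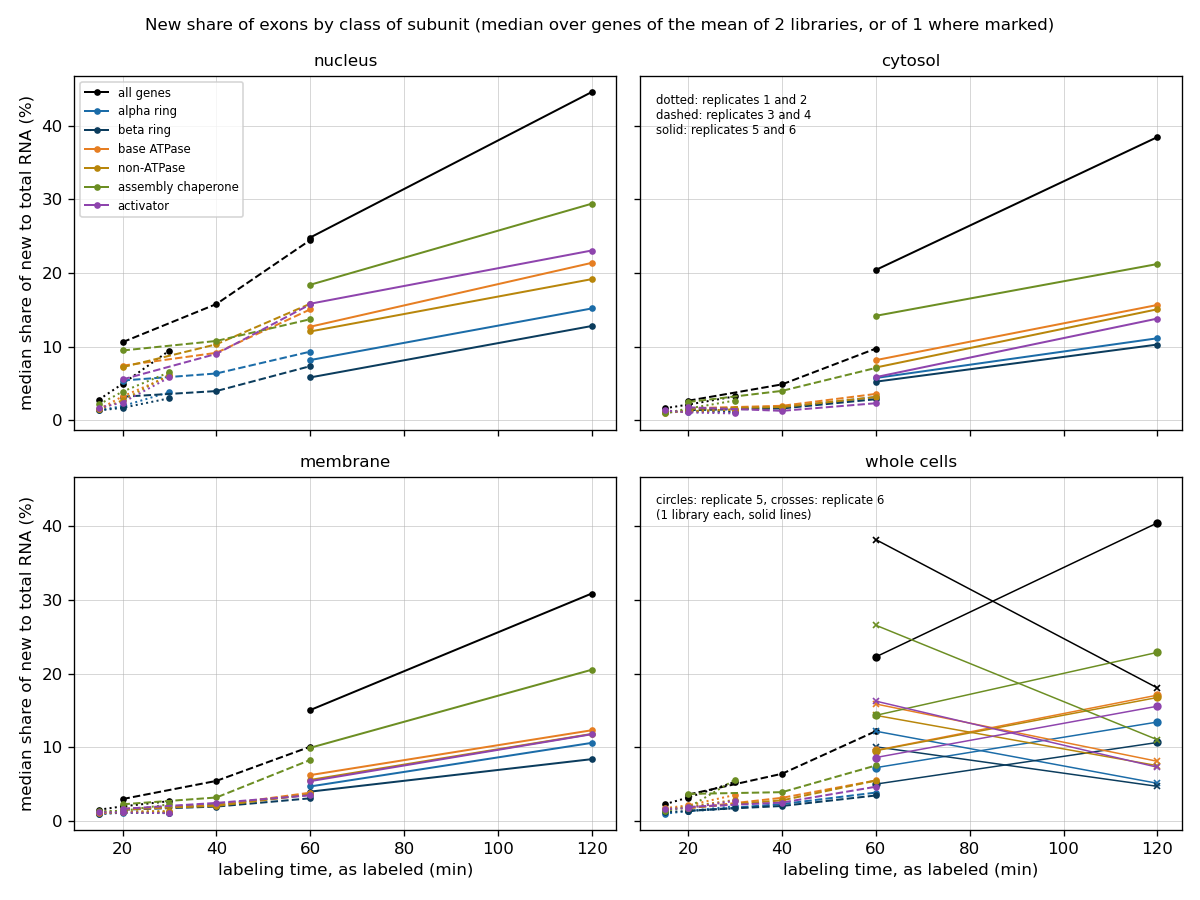
Median share of new to total RNA (%) by class of subunit and labeled time (min) in the 4 fractions; points are medians over genes of the mean of 2 libraries, except in whole cells of replicates 5 and 6, which are drawn as single libraries. The 6 classes drawn lie below all genes at 60 and 120 min in replicates 5 and 6 of the separated fractions, with the beta ring lowest, and the lines of replicate 6 in whole cells fall from 60 to 120 min.

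Nuclear and cytosolic shares were compared to ask how new RNA is distributed between these fractions. Members had a higher new share in the nucleus at 20 min, as most genes did. Cytosolic shares were low at this time, and the part of background conversions in the folds was not tested. In edgeR's quasi-likelihood test with the covered thymines and the conversion rate as an offset, 39 of 46 members tested were higher in the nucleus and 0 lower, beside 60.0% and 0.247% of 12130 genes, and the median log2 fold was 1.62 for members and 1.52 for all genes. Psmb9 could not be tested since it had fewer than 400 covered thymines in some libraries. All 17 regulatory genes and 12 of 15 core genes were called. Psmd7 had 7.15%, 9.20%, 15.5% and 17.3% in the nuclear libraries and 1.78%, 2.05%, 2.73% and 3.71% in the cytosolic ones, which do not overlap (log2 fold 2.26, SE 0.333, edgeR adjusted p = 1.56e-08). Psmg3 had the largest fold, with 4.21% to 28.0% against at most 4.08% (2.38, SE 0.624), followed by Psmd6 (2.35), Psmd7, Psmd5 (2.18) and Psmf1 (2.16). The cytosolic shares of Psmg3 rested on only 5 to 18 conversions per library. The smallest called were Psmd1 (0.94), Psmb1 (0.96), Psmb7 (0.98), Psma5 (1.02) and Psmd2 (1.28). Psmb5 (1.29), Psmb6 (1.79), Psme1 (1.76), Psme3 (1.58) and Psme4 (1.80) were higher too. Psme2 was not, with 0% to 2.62% in the nucleus and 0.695% to 2.81% in the cytosol (log2 fold -0.27, SE 0.725), nor was Psmb10 (1.53, SE 1.09), whose nuclear values ran from 0% to 18.5%. Within replicates 1 and 2 the test called 19 members and within replicates 3 and 4 39. Without replicate 3 it called 27, and Psma5, Psmb1, Psmb7, Psmd1, Psme1 and Psmg3 were among the 12 that lost the call. The shares of all genes called in these subsets are not given here.

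Relative to the median share of each library, however, 0 members were called higher and 6 lower, and the 6 were Psmb2, Psmb3, Psmb7, Psmd1, Psme2 and Psmg1. Psme2 then had a log2 fold of -1.92, Psmd1 -0.83 and Psmb7 -0.72. Psmd7 (0.57), Psmd6 (0.50), Psmg3 (0.48) and Psmd5 (0.42) had the highest folds among the members named above, and none of these was called. The median over members was -0.20 on this scale and that over all genes -0.21. The share of all genes called on this scale is not given here, so the 6 calls do not set the members apart.

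At 60 min, 21 of 46 members were higher in the nucleus and 0 lower, beside 20.1% and 0.801% of 12230 genes, with a median log2 fold of 1.03 for members and 0.67 for all genes. All 4 activators were called and 0 of 7 chaperones. Calls at this time moved with the fit, as given below, so these counts do not set the 2 classes apart. Some chaperones also rested on few conversions, with 4 to 27 per cytosolic library at 60 min for Psmg4. Psme1 had 11.8%, 12.4%, 15.6% and 24.8% in the nucleus and 1.19%, 1.69%, 3.52% and 4.90% in the cytosol, which do not overlap (log2 fold 2.56, SE 0.524, edgeR adjusted p = 0.00148). Psme2 had 9.73%, 9.92%, 10.3% and 10.46% in the nucleus and 1.73%, 2.28%, 2.35% and 3.81% in the cytosol (2.02, SE 0.479, edgeR adjusted p = 0.00455). Psmd4, a ubiquitin receptor, had 13.6% to 28.1% against 2.35% to 7.49% (2.03, SE 0.446), Psmd14, the deubiquitinase of the lid, 9.43% to 20.6% against 2.16% to 6.02% (1.82, SE 0.447), and Psme4 12.7% to 21.5% against 2.46% to 8.20% (1.78, SE 0.448). The smallest called folds belonged to Psma7 (1.04), Psmc5 (1.11), Psmd8 (1.13), Psme3 (1.28) and Psmd3 (1.32). Psmb6 was called (1.36, SE 0.386), with 8.32% to 15.0% against 2.48% to 5.86%. Psmb5 (0.45, SE 0.406), Psmb7 (0.54, SE 0.400), Psmb10 (1.16, SE 0.655) and Psmf1 (0.58, SE 0.415) did not pass.

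The count at 60 min moved with the fit. With the replicate as a block, which the fractions of a culture share, 33 members were called. Without replicate 3 there were 4, without replicate 4 11, without replicate 5 17 and without replicate 6 24. Replicates 3 and 4 alone gave 41 and replicates 5 and 6 alone 10, and every call was in the same direction. The fit shares its spread with the whole-cell libraries, and without the whole-cell library of replicate 6 that goes against its label it called 28 members. Centred on the median share of each library, 18 members were higher and 2 lower. Shares of all genes called under these settings are not given here, so these counts only show how the calls moved.

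Between membrane and cytosol at 60 min, 0 of 46 members differed in new share, beside 0.0164% of genes higher and 5.14% lower. The median log2 fold was -0.17 for members and -0.10 for all genes. With edgeR, 1 member and 1302 genes had an unadjusted p under 0.05, and limma called 0 members. Psmb5, for example, had 3.54% to 6.38% in the membrane and 3.53% to 7.89% in the cytosol (log2 fold -0.17, SE 0.407), Psmb6 2.79% to 4.65% and 2.48% to 5.86% (-0.21, SE 0.381), and Psmb7 2.16% to 4.32% and 2.64% to 4.84% (-0.25, SE 0.401). The ranges overlap in each. Folds of the other genes named throughout were -0.87 for Psmb10, -0.08 for Psme1, 0.05 for Psme2, -0.12 for Psme3, 0.18 for Psme4 and 0.03 for Psmf1. All of these lie within the spread of the replicates.

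Introns report pre-mRNA. In the nucleus at 20 min, introns of 46 of 46 members tested had a higher new share than exons of the same gene, beside 85.3% of 11282 genes (0.106% lower), and the median log2 fold was 3.19 for members and 2.05 for all genes. Core genes had a median of 4.05, regulatory genes 3.10 and the 7 chaperones 2.52. Psmb7 showed the largest fold, with 55.6%, 63.4%, 75.5% and 84.9% in introns and 1.54%, 1.82%, 2.85% and 3.51% in exons (log2 fold 4.85, SE 0.473, edgeR adjusted p = 3.81e-22). Psma5, with 70.8% to 82.2% against 1.90% to 3.98%, was next (4.78, SE 0.470), followed by Psmd1 (4.69), Psme2 (4.61) and Psma6 (4.40). The ranges of introns and exons lie apart in each of these.

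Among the catalytic genes, Psmb5 had 79.5%, 82.1%, 88.0% and 89.5% in introns and 1.27%, 3.44%, 5.70% and 6.06% in exons (log2 fold 4.35, SE 0.505), and Psmb6 30.9% to 63.99% and 2.77% to 7.66% (3.43, SE 0.450). The lowest folds were those of Psmd6 (1.78), Psmd9 (1.91), Psmg3 (1.95), Psmd5 (2.17) and Psmd14 (2.37). Psmd5, for example, had 26.6% to 60.8% in introns and 4.65% to 15.5% in exons, which is high in both. Psme1 (3.19), Psme3 (2.40), Psme4 (2.62), Psmb10 (2.64) and Psmf1 (2.57) lay between. Psmb10 rested on 2 to 63 conversions in introns and 0 to 7 in exons per library, and its intron share ran from 3.70% to 53.7%. Limma called 46 of 46 as well. Relative to the library medians of introns and exons, 14 members lost the call, and the folds of Psmd6, Psmd9 and Psmg3 turned to -0.28, -0.27 and -0.12.

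**Figure D4:**
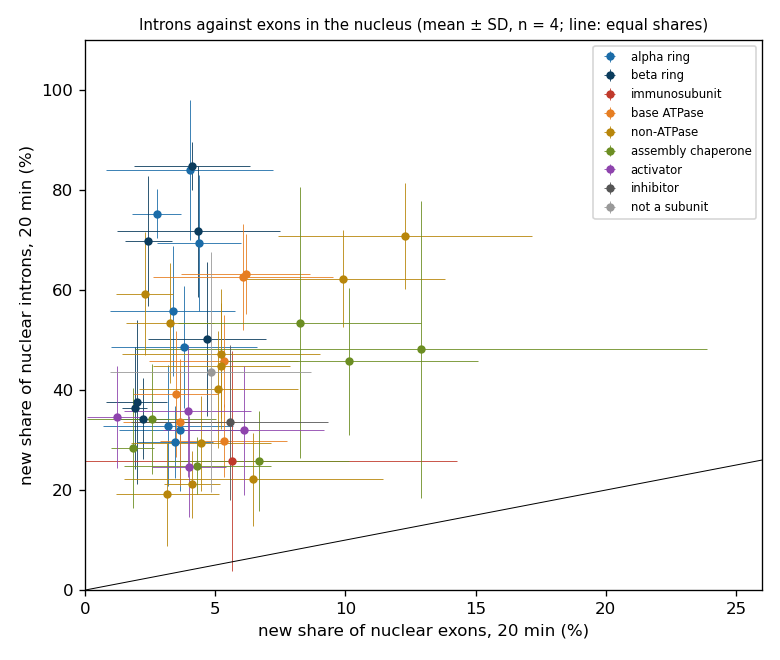
Share of new to total RNA of introns (vertical axis, %) against exons (horizontal axis, %) of 46 members in the nucleus at 20 min, coloured by class, as mean and SD over 4 libraries, with a line of equal shares. All means lie above the line, with Psmb5 (introns 84.8%, exons 4.12%) and Psmb7 (69.8% and 2.43%) far from it and Psmg3 (48.1% and 12.9%) among the nearest by ratio.

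In the longest genes, exons near the 3′ end held the highest new shares. Psme4 spans 109 kb, Psmd14 88.7 kb and Psmd9 80.7 kb in the annotation. In the nucleus at 20 min, exons of Psme4 less than 5 kb from the 3′ end had a new share of 7.10 ± 3.60% (SD, n = 4) and those at 50 kb or more 1.46 ± 0.24%, and the ranges, 3.99% to 11.3% and 1.14% to 1.66%, do not overlap. At 60 min the exons measured at these distances had 22.9 ± 3.71% and 6.94 ± 1.99%. At 50 kb or more, 19 exons were measured at 20 min and 11 at 60 min, so the 2 times do not compare the same exons. Psmd14 went from 8.89 ± 1.39% within 5 kb to 0.913 ± 0.894% at 50 kb or more at 20 min, and from 24.4 ± 7.60% to 2.15 ± 1.49% at 60 min. Between these ends, exons of Psme4 had 1.72% at 5 to 20 kb and 1.43% at 20 to 50 kb at 20 min, which is the level of the farthest exons, and 15.1% and 10.95% at 60 min. Those of Psmd14 had 4.55% and 1.09% at 20 min and 17.2% and 7.72% at 60 min. Psmd9 had 1 measured exon within 5 kb, with 9.52 ± 3.47% at 20 min, and 1 at 20 to 50 kb with 1.93 ± 2.28%, and its other exons varied too much for an order. Exons of Psme4 at 50 kb or more had 1.22% at 15 min (18 exons measured), 1.46% at 20 min (19) and 1.17% at 30 min (17). Background conversions were not subtracted, and their part in such values was not tested. Exons of a gene share their libraries, and no test was made across them.

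**Figure D5:**
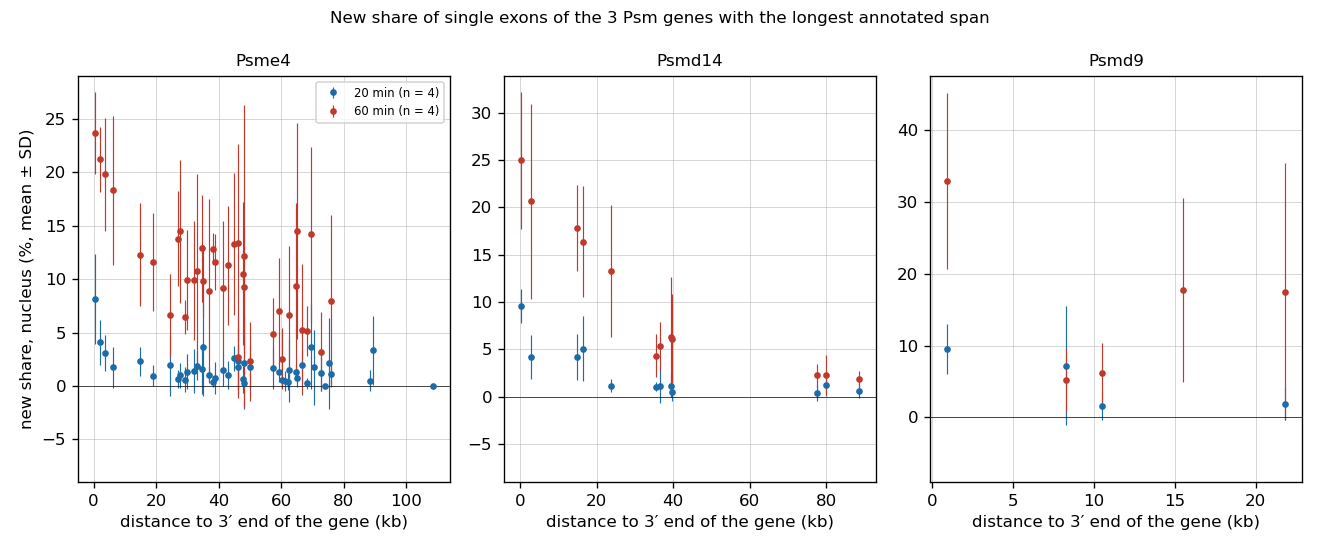
Share of new to total RNA (%, mean ± SD over 4 nuclear libraries) of single exons by distance from the 3′ end (kb) for the 3 members with the longest annotated span, at 20 and 60 min. In Psme4 and Psmd14 the exons nearest to the 3′ end are highest, for example 24.4% within 5 kb against 2.15% at 50 kb or more in Psmd14 at 60 min.

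Other genes of the ubiquitin and proteasome pathway, from a list that holds no Psm gene, were split between the nucleus and the cytosol. Of 29 genes found among 30 listed, 10 were lower and 8 higher in the nucleus than in the cytosol, with a median log2 fold of -0.01, against 34 lower and 0 higher of 47 members. Pomp, the maturation factor of the core, was lower (14.2 against 35.9 RPKM, log2 fold -1.34, SE 0.112), as was Uchl5, a deubiquitinase of the regulatory particle (-1.40, SE 0.0798). Sem1, a small lid subunit without a Psm symbol, was lower too (-0.59). Those higher in the nucleus included Tap1, Tap2, Tapbp and B2m of antigen presentation, which were also higher in the membrane than in the cytosol by 4.17, 3.73, 2.79 and 3.93, and Nfe2l1, a factor anchored in the endoplasmic reticulum (1.19 in the nucleus and 2.78 in the membrane). In the membrane 5 of the 29 were higher and 3 lower. Nuclear new shares were higher for 24 of 27 tested at 20 min and 10 of 27 at 60 min, where 60.0% and 20.1% of all genes were higher, and membrane shares differed in 0. Introns exceeded exons in 27 of 27, beside 85.3% of all genes, with a median log2 fold of 2.12, which is close to the 2.05 of all genes and below the 3.19 of the members.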

How the data were processed

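Per the labels and the methods of the study, poly(A) RNA was sequenced as stranded paired-end libraries, mapped with STAR 2.7.6 to mm10, and reads per gene were counted with HTSeq 0.11.1. The authors deposited these raw counts and, per library, counts of covered thymines and of T-to-C conversions in exons and introns with an estimated conversion rate (a fraction). The deposited ratio of conversions to thymines, divided by that rate by the authors, was used to check the same ratio recomputed here. The deposited estimated TPM values were not used. HTSeq summary rows, 30.4% to 48.8% of reads, were left out. RPKM used exon lengths of the GENCODE annotation of the same assembly, which held 51633 of 51826 genes.

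Here, edgeR 4.0.16 (R 4.3.3) quasi-likelihood tests with TMM scaling were fitted over all genes, with DESeq2 1.42.0 and limma 3.58.1 as alternatives. Members and lists were chosen with earlier results of these data known. Named genes are the 5 highest and 5 lowest called members of a comparison, the immunosubunits with their counterparts, the activators and Psmf1; other members named for a level or a share, such as Psma6, Psmd3 or the long genes, were chosen after their values were seen. Replicates were passaged independently and each culture was fractionated, so that fractions of a replicate and time are paired: deviations of nucleus and cytosol from their means correlated with r of 0.031 to 0.570 over 16 cultures, and of membrane and cytosol with 0.459 to 0.804. Whole-cell times share only a number. On simulated data with log2 changes of 2, the test recovered 156 of 200 changed genes for whole cells at 60 against 20 min (10 false calls of 16858) and 115 of 200 for new shares at 20 min (6 of 12130). Members had log2 folds of at most 0.65 in that whole-cell comparison, and recovery at such sizes was not measured. Alternatives changed scaling, filters, test, block and replicates; leaving out the whole-cell library of replicate 6 was added after seeing the data.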

Additional observations from a re-analysis of the deposited data

Results flagged for a closer look

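In 116 groups of 4 libraries examined for members, 5 held a library far from the other 3, and chance alone sets about 1 in 20 groups apart. The nuclear exons of Psmb10 at 20 min had a new share of 18.5% in replicate 3, where the next library had 2.72%, and this one group entered 2 comparisons. Psmd3 had 18.7% in nuclear exons at 60 min in replicate 3 (next 11.04%) and Psmb6 15.0% in the same library (next 9.31%). The nuclear introns of Psme2 at 20 min had 49.7% in replicate 4, with 31.3% next. In 96 comparisons of a fold between replicate pairs, 0 had every culture of one pair on the opposite side of the other.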

How the results depend on the processing

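Under all alternatives, members called in the nucleus against the cytosol were lower in reads (26 to 45 called without single replicates; without replicate 3 Psmb3, Psmb5, Psmc3, Psmc4, Psmd11, Psmd12, Psmd14 and Psmg1 lost the call), and 45 or 46 of 46 had higher intron than exon shares without single replicates. The cause of the changes below was not tested. Counts of members called under an alternative stand without the share of all genes called under the same setting.

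For membrane against cytosol in reads, 10 members were called with DESeq2's size factors and with the DESeq2 test, 26 with library totals, 14 without a filter, 11 with all 72 libraries, 11 in replicates 3 and 4 and 12 in replicates 5 and 6, and 3 to 17 without single replicates. For nuclear shares, centring on the library median left 6 calls at 20 min and replicates 1 and 2 alone 19. At 60 min the replicate block gave 33, replicates 3 and 4 alone 41, replicates 5 and 6 alone 10, and leaving out single replicates 4 to 24. For membrane shares, centring gave 3 calls and replicates 5 and 6 alone 1. The block changed no other call than those of Psmc3, Psmg4, Psmd4 and the 12 gained at 60 min.

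The following log2 folds changed sign. Nuclear reads of Psmb9 gave -0.089 with DESeq2's size factors and test, -0.13 without a filter, -0.22 with all 72 libraries, -0.075 with the block, -0.51 and -0.35 in the first 2 replicate pairs and -0.25 to 0.10 without single replicates. Membrane reads in replicates 1 and 2 gave 0.14 for Psmb5, 0.0100 for Psmb6 and 0.066 for Psme1, library totals -0.10 for Psme2, and single replicates left out -0.25 to 0.011 for Psmb5. In whole cells at 60 against 20 min, library totals gave -0.031 for Psmb10 and -0.033 for Psme4 and the block -0.0025 for Psmb10, and at 120 against 60 min library totals 0.074 for Psmf1. Leaving out single replicates gave, at 40 min, -0.58 to 0.12 for Psmb9 and -0.091 to 0.024 for Psme4, at 60 min, -0.23 to 0.24 for Psmb10, -0.025 to 0.36 for Psme1, -0.051 to 0.61 for Psme2, -0.0086 to 0.098 for Psme3 and -0.086 to 0.097 for Psme4, and at 120 min, -0.074 to 0.35 for Psme3, -0.033 to 0.32 for Psme4 and -0.25 to 0.046 for Psmf1.

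For nuclear shares at 20 min, centring gave -0.83 for Psmd1, -0.80 for Psmb1, -0.72 for Psmb7, -0.66 for Psma5, -0.51 for Psmd2, -0.46 for Psmb5, -0.30 for Psmb10, -0.056 for Psme1 and -0.19 for Psme3, and Psmb10 had -0.26 in replicates 1 and 2 and -0.32 to 2.65 without single replicates. At 60 min centring gave -0.31 for Psmb5, -0.27 for Psmb7 and -0.29 for Psmf1, and replicates 5 and 6 -0.13 for Psmb5. For membrane shares, centring gave 0.074 for Psmb5, 0.019 for Psmb6, 0.19 for Psme1 and 0.083 for Psme3, replicates 3 and 4 gave 0.12, 0.062, 0.16 and 0.053 for the same genes, replicates 5 and 6 gave -0.22 for Psme2, -0.096 for Psme4 and -0.068 for Psmf1, limma -0.036 for Psmf1, and single replicates left out -0.26 to 0.045 for Psme1, -0.13 to 0.42 for Psme2, -0.21 to 0.041 for Psme3 and -0.15 to 0.16 for Psmf1. For introns, centring gave -0.28 for Psmd6, -0.27 for Psmd9 and -0.12 for Psmg3.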
